A study of Mus musculus with 6 samples.

Results

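The chromatin around 10 immediate-early and stimulus-induced transcription factor genes was described in Beko cells, a mouse leukemia pre-T-cell line with constitutively active Notch signaling. The genes were Nr4a1, Nr4a2, Nr4a3, Egr1, Egr2, Egr3, Fos, Jun, Junb and Csrnp1, out of 22380 annotated protein-coding genes. They were chosen by name, with earlier results of these data known: Csrnp1 was picked because one of the widest accessible intervals of the series lies beside it, and the question asked was whether other inducible genes have wide promoters and wide distal peaks too. ATAC-Seq, in which a transposase cuts accessible DNA so that dense reads mark open chromatin, was performed on 6 libraries, all after 24 h of treatment. In 3 libraries the cells had received DAPT, an inhibitor of γ-secretase (GSI), and in the other 3 only its solvent, DMSO. The inhibitor stops the cut by which the Notch intracellular domain is set free, and its concentration is 10 mg/ml in the labels, while the study's methods give it in µg/ml. No stimulus that induces immediate-early genes is named in the labels. The data used here are 1 list of 32527 accessible intervals (peaks), merged by the authors over both treatments. The list holds no value per library, so GSI and DMSO could not be compared, the depth behind a peak is unknown, no replicate error exists for any value, and no test was made. A peak's width in bp is the measurement, and neither the amount of transcript nor its induction was measured.

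Immediate-early genes are transcribed within minutes of a signal, from factors already present in the cell and without new protein synthesis. Serum response factor (SRF), which binds the CArG box, and the cAMP-responsive factor CREB, which binds the CRE, are their best known activators. Fos, Jun and Junb are subunits of the dimeric factor AP-1. The EGR proteins are zinc finger factors that bind GC-rich DNA, and the NR4A proteins are orphan nuclear receptors. In thymocytes, signaling from the T-cell receptor induces Nr4a1, Egr1, Egr2 and Egr3, and the NR4A receptors take part in the death of self-reactive cells. Csrnp1 encodes a nuclear protein first found as induced by AXIN1.

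The labelled cell type was checked at marker genes. Of 11 T-lineage genes found in the annotation, 10 had a peak within 1 kb of an annotated transcription start, Cd3d being the exception. Among 6 B-cell genes and 6 myeloid genes the count was 0 in each list. Of all coding genes, 46.9% had such a peak.

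Peaks were collected in each gene body and 50 kb to either side (mm9, GENCODE vM1), which gave 53 peaks for the 10 genes. A peak within 1 kb of a start of the gene itself was called an own-start peak, and a peak more than 1 kb from every annotated start of any gene a distal peak. There were 9 own-start peaks, 31 distal peaks and 13 peaks at the starts of other genes. Of the 10 genes, 7 had an own-start peak, and Nr4a2, Egr3 and Csrnp1 had none. Over all coding genes the share was 46.9%. An own-start peak wider than 1000 bp was found at 4 genes, Egr1, Jun, Egr2 and Fos, against 18.7% of all coding genes and 39.8% of those with an own-start peak. A distal peak wider than 1000 bp lay in the window of 4 genes, Csrnp1, Egr2, Nr4a1 and Nr4a3, against 8.43% of coding genes. Leaving out Csrnp1, which was picked for it, 3 of the other 9 genes had one. Both features came together at Egr2 alone, against 2.53% of coding genes. Csrnp1 itself had no own-start peak by this annotation. The wide starts of Egr1, Jun and Fos and the wide distal peaks of Csrnp1, Nr4a1 and Nr4a3 were at different genes. With counts this small, that was not read as a separation of the features. With RefSeq starts added, as described below, the wide peaks of Csrnp1 and Egr2 were no longer distal.

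**Figure D1:**
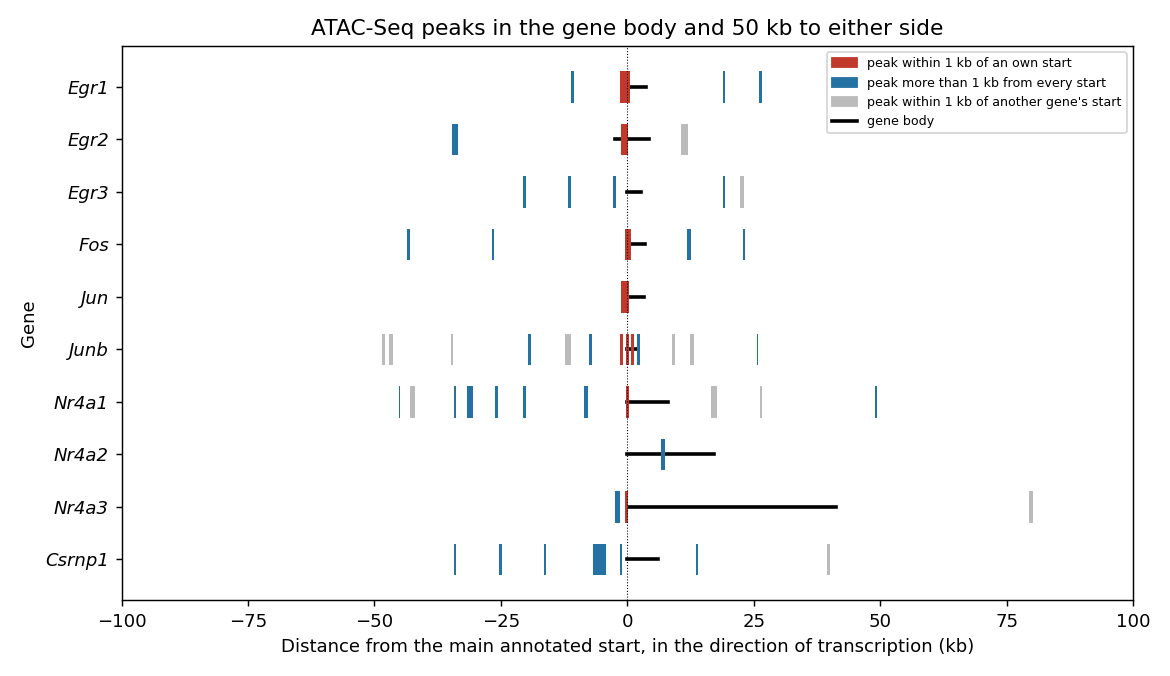
Peaks around the 10 genes, drawn by distance in kb from the main annotated start (x axis, positive values downstream), with a gene in each row. Red bars are own-start peaks, blue bars distal peaks, grey bars peaks at the starts of other genes and black lines gene bodies. Jun has 1 peak and Junb has 13, and the 2603-bp distal peak of Csrnp1 is the widest drawn.

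The CArG box, bound by SRF, was searched in the peaks on either strand (CC, then 6 bases that are each A or T, then GG). It occurred in 4 of the 9 own-start peaks (44.4%), with 5 copies at Egr1, 2 at Egr2, and 1 each at Fos and Junb. Among all 10738 peaks at the starts of coding genes the share was 3.03%. Per kb of peak sequence there were 1.03 boxes in the genes' own-start peaks and 0.0353 in all such peaks. Without Egr1, 3 of 8 peaks held 4 boxes, which is 0.584 per kb. In distal peaks the box occurred in 5 of 31 (16.1%), against 2.57% of all 21005 distal peaks, or 0.252 against 0.0487 boxes per kb. By gene, 6 of the 10 (Egr1, Egr2, Egr3, Fos, Junb and Nr4a1) had a box in an own-start or distal peak of the window, against 5.97% of coding genes. Nr4a2, Nr4a3, Jun and Csrnp1 had none. The share of 5.97% also counts genes with no peak to search. A median of 3.5 distal peaks per window was searched here, against 1 for coding genes. When the central 200 bp of every peak was searched, so that all had equal length, 3 of the 40 own-start and distal peaks held a box, against 0.822% of all such peaks. A match is a match of letters and does not show that SRF is bound.

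The boxes outside Egr1 are shown because the box had a larger share in these peaks than in all peaks of the same kind. Each line gives 30 bases of mm9 in the direction of transcription, from the NCBIM37 reference, with the CArG box in capitals. The boxes in the own-start peaks lie 375 and 72 bp before the main start of Egr2 (chr10:67000232-67000261 and chr10:67000535-67000564, + strand), 309 bp before that of Fos (chr12:86814521-86814550, + strand) and 1450 bp before that of Junb (chr8:87504048-87504077, − strand).
Egr2 at -375: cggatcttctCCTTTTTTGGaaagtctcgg
Egr2 at -72: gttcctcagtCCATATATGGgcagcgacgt
Fos at -309: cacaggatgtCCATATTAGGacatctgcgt
Junb at -1450: cttcctgtgcCCTAATATGGgtgctgggga
The Fos box is at the place of the serum response element for which this promoter is known. In distal peaks, boxes lie 7868 bp before the start of Nr4a1 (chr15:101089399-101089428, + strand), 11332 and 2574 bp before the start of Egr3 (chr14:70465910-70465939 and chr14:70474668-70474697, + strand), 12224 bp past the start of Fos (chr12:86827054-86827083, + strand) and 2085 bp past the start of Junb (chr8:87500513-87500542, − strand).
Nr4a1 at -7868: atttgcttctCCATTTATGGcattagaggg
Egr3 at -11332: aaaggagaagCCAAAATTGGccagactgag
Egr3 at -2574: ctgtgcggttCCTTTAAAGGctgcgggttc
Fos at +12224: tccgttctgcCCATATTTGGaaaggcgccg
Junb at +2085: gaagctctgcCCATATATGGgcctattcag
None of these stretches overlaps an annotated exon. The 2 boxes of Junb lie on either side of the gene.

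The 300 bases before the main start were searched for all 10 genes, with or without a peak there. The full CRE, TGACGTCA, was found at none, against 2.00% of coding genes. Its conserved part TGACG, searched on both strands after the sequences had been seen, occurred 4 times at Nr4a1, 4 times at Nr4a2, 3 times at Nr4a3, 3 times at Fos, 2 times each at Egr1 and Egr2 and once at Junb. At least 2 copies were present at 6 genes, against 5.23% of coding genes and 8.25% of those with an own-start peak. At least 3 copies were present at 4 genes, against 1.10% and 1.94%. The 3 NR4A genes thus had 3 or 4 copies each. Jun had 0, as had Egr3 and Csrnp1. The bases searched for Egr3 lie before its coding start. Those for Csrnp1 lie before an annotated start that is 5773 bp or more from its RefSeq starts. The 0 of Egr3 and of Csrnp1 is thus no comparison of promoters. The 250 bases before the start of Nr4a1 (chr15:101097027-101097276, + strand) and of Nr4a3 (chr4:48057775-48058024, + strand) show the copies, in capitals as TGACG or, on the other strand, CGTCA.
Nr4a1: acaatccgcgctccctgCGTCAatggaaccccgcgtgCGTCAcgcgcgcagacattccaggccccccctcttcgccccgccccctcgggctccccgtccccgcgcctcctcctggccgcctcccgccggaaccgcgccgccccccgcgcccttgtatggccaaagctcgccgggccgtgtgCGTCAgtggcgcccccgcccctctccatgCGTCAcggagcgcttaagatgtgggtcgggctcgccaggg
Nr4a3: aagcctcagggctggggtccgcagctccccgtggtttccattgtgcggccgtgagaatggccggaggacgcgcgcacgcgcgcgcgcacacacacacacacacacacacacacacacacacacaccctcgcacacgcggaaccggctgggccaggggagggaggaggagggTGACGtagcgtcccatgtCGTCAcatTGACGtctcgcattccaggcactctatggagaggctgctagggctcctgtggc
The 4 copies at Nr4a1 lie in the GC-rich promoter under its 542-bp peak, and 3 copies at Nr4a3 lie close together, after a run of CA repeats. For contrast, the 250 bases before the start of Jun (chr4:94718914-94719163, − strand) hold no TGACG, and its SP motif (GGGCGG, in capitals as its complement CCGCCC) and the RBPJ motif TGGGAA are in capitals.
Jun: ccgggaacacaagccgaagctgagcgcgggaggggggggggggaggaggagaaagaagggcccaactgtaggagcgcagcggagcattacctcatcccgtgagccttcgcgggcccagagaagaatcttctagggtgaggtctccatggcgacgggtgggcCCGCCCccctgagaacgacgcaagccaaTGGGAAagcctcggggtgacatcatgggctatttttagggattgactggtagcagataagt
The Jun promoter is known for a variant AP-1 element, which differs from the letters searched here (TGACTCA) and was not counted.

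Other motifs were counted in the same 300 bases. The CArG box was at Egr1 and Egr2 (1.59% of coding genes), since the Fos box lies just beyond 300 bases. The SP motif GGGCGG was at 5 genes (41.5% of coding genes), the RBPJ motif TGGGAA, the DNA element of the Notch effector, at Egr1 and Jun (24.7%), and the E-box CAGCTG at Fos and Junb (13.7%). The motifs TGACTCA (AP-1), GCGTGGGCG (EGR), AAAGGTCA (NR4A) and CCGGAAGT (ETS) were at none of the 10, against 4.45%, 0.764%, 1.31% and 3.61% of coding genes. The AP-1 and CRE motifs share their first letters, and SP and EGR motifs can overlap in GC-rich sequence. In the central 200 bp of the 31 distal peaks, the SP motif was found in 9 (29.0%, against 9.29% of all distal peaks), TGGGAA in 6 (19.4% against 16.4%), the E-box in 6 (19.4% against 25.6%) and the AP-1 motif in 2 (6.45% against 4.65%). More of the 9 peaks with the SP motif lay near Csrnp1 than near any other gene, its widest peak among them. CpG-rich peaks, as defined below, made up 29.0% of these distal peaks and 2.94% of all, and the SP share was not adjusted for this.

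**Figure D2:**
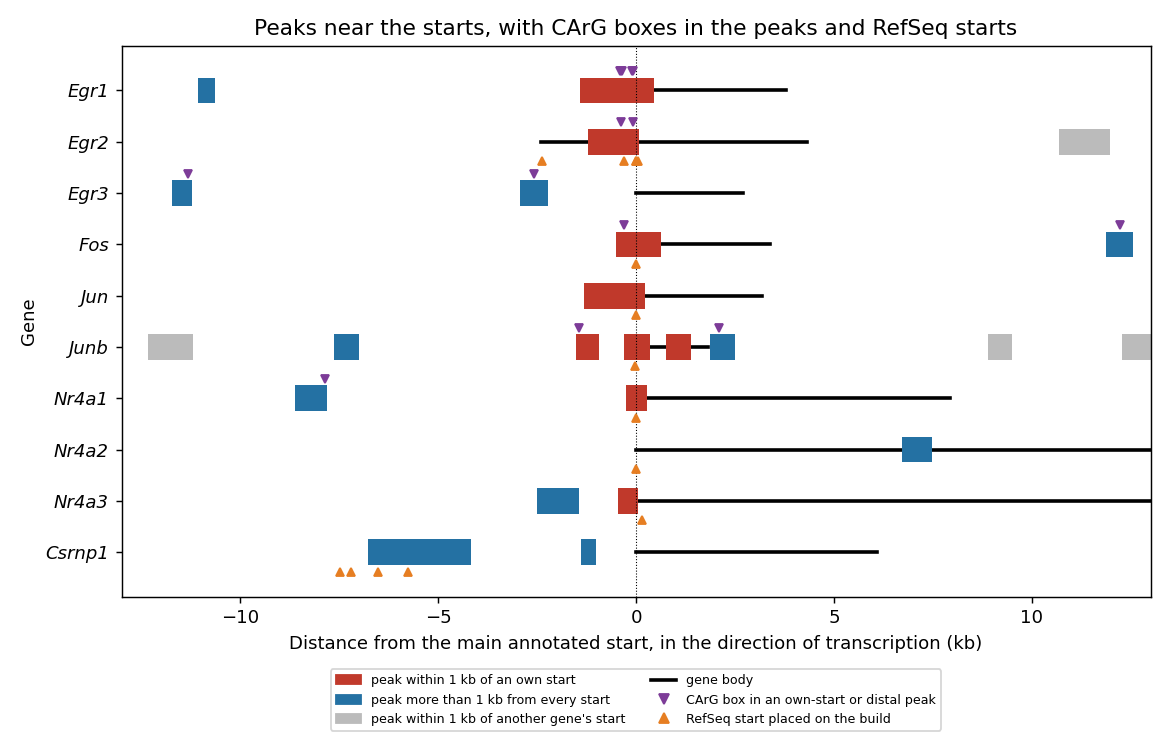
The region to either side of the main start (x axis, kb), with colours as in the map of whole windows. Purple triangles above a row mark CArG boxes in own-start or distal peaks and orange triangles below a row mark RefSeq starts, and 2 of the 4 RefSeq starts of Csrnp1 fall inside its wide distal peak.

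The EGR genes ranged from the widest own-start peak of the 10 genes to none. Egr1 lies at chr18:35020861-35024638 (+ strand) and its own-start peak, at 35019449-35021316, was 1868 bp wide, wider than 98.7% of the widest own-start peaks of coding genes. It reached 1412 bp upstream of the start, farther than 99.4% of coding genes whose main start lies in a peak, and 455 bp downstream. The 5 CArG boxes begin 407, 369, 353, 105 and 83 bp before the start, in a far and a near cluster. Its 3 distal peaks were 411 to 748 bp wide, and the 748-bp peak at 35046794-35047541 lay 22156 bp past the gene end.

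Egr2, which restrains T-cell activation and is needed for NKT cells, lies at chr10:66998223-67004936 (+ strand). Its 1289-bp own-start peak, at 66999411-67000699, did not cover the first base of the gene but 4 RefSeq starts and the main annotated start within it, at 67000617. It reached 1206 bp upstream of that start and 82 bp downstream, and was wider than 86.0% of own-start peaks. The 1 distal peak of Egr2, 1197 bp at 66965939-66967135, lay 31088 bp upstream between genes. A RefSeq start of the predicted gene Gm40679 lies 49 bp from that peak, so with RefSeq starts added it was no longer distal. Egr3 (chr14:70477252-70479964, + strand) had no own-start peak. Its annotated 5′ UTR is 0 bp long, so the annotated start is that of the coding sequence. Among all coding genes 12.5% had no 5′ UTR, and of these 12.6% had an own-start peak, against 51.8% of genes with one. The nearest peak to Egr3, 728 bp at 70474309-70475036, lay 2216 bp upstream. It was CpG-rich and held a CArG box, the EGR motif and 4 SP motifs. No RefSeq start was given for Egr1 or Egr3.

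Among the AP-1 genes, the partners Fos and Jun had wide own-start peaks and Junb, which can oppose Jun, had several narrow ones. Fos lies at chr12:86814840-86818223 (+ strand), with a 1119-bp peak at 86814342-86815460 that reached 498 bp upstream and 620 bp downstream of the start. It was wider than 73.6% of own-start peaks. The 4 distal peaks of Fos were 377 to 682 bp wide. The widest, 682 bp at 86826716-86827397, lay 8493 bp past the gene end, was CpG-rich and held 1 CArG box and 3 SP motifs. Jun (chr4:94715725-94718913, − strand) had a 1546-bp peak at 94718683-94720228, wider than 94.9%, reaching 1315 bp upstream and 230 bp downstream. A start of BC042782, a gene on the opposite strand, lies in the same peak, so its width cannot be assigned to Jun alone. Jun had no other peak in a window of 103189 bp. Among coding genes with an own-start peak, 6.88% had no other peak in the window.

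Junb (chr8:87500811-87502617, − strand) is the shortest of the 10 genes, at 1807 bp, and had 13 peaks in the window, 6 of them at starts of neighbouring genes. Its 3 own-start peaks were 629 bp (87501222-87501850), 654 bp (87502269-87502922, over the start) and 574 bp (87503563-87504136). At least 3 own-start peaks were present at 1.74% of coding genes with one. The widest was wider than 15.9% of own-start peaks. With the 647-bp distal peak at 87500108-87500754, 57 bp past the gene end, they formed a run of 4 peaks separated by 467, 418 and 640 bp. That run spanned 4029 bp, of which 2504 bp were in peaks, and peaks covered 54.1% of the gene body. Among the 528 coding genes of 1000 to 3000 bp with an own-start peak, a length range chosen after the data had been seen, the median was 22.6%, and 91.3% of them had a lower cover than Junb. Its widest distal peak, 649 bp at 87509606-87510254, lay 6989 bp upstream.

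The NR4A genes had narrow own-start peaks or none. Nr4a1 (chr15:101097277-101105223, + strand), the family member best known from T-cell receptor signaling, had a 542-bp peak at 101097011-101097552. It was wider than 8.81% of own-start peaks and reached 266 bp upstream and 275 bp downstream of the start. Nr4a1 had 7 distal peaks, more than the other 9 genes, at distances up to 48899 bp from its start. The widest, 1127 bp at 101065551-101066677, lay 30600 bp upstream between genes and held 1 AP-1 motif, 3 TGGGAA and 6 E-boxes. Nr4a3 (chr4:48058025-48099319, + strand) had a 499-bp own-start peak at 48057576-48058074, wider than 6.69%. Upstream of it lay a CpG-rich distal peak of 1047 bp at 48055532-48056578, 1447 bp from the start. A gap of 997 bp without a peak separated the 2 peaks. The wider of them was thus not the one at the start. Nr4a2 (chr2:56959241-56976414, − strand) had 1 peak in a window of 117174 bp. It was 752 bp wide at 56968936-56969687, in an intron and CpG-rich, and lay 1487 bp from the nearest annotated start and 6727 bp from the RefSeq start.

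Csrnp1 (chr9:119880284-119886368, − strand) had 6 distal peaks and no own-start peak. Its 2603-bp peak at 119890533-119893135, which is why it was picked, lay 4165 bp upstream of the single annotated start and was second in width among 21005 distal peaks. Of these, 1056 (5.03%) exceeded 1000 bp. The other 5 distal peaks were 376 to 511 bp wide. RefSeq places 4 starts of Csrnp1 farther upstream, at 119892141, 119892897, 119893561 and 119893860, found by exact match of their promoter sequences on mm9. The first and second lie inside the 2603-bp peak, and the others 426 and 725 bp from it. A start of the predicted gene Gm33800, on the opposite strand, lies inside it at 119892963. By RefSeq the wide peak is therefore an own-start peak of Csrnp1. The peak held 8 SP motifs, 3 TGGGAA, 2 AP-1 motifs and no CArG box. Motif counts of single whole peaks, here and above, were not set against other peaks of like width, and a wider peak has more bases to match. Both AP-1 motifs are shown in capitals with 10 bases to either side, 5′ to 3′ on the − strand (chr9:119892139-119892165 and chr9:119892227-119892253), because AP-1 is itself made of immediate-early proteins and they lie close to the RefSeq start at 119892141.
Csrnp1 motif 1: gccactgccgTGAGTCAccggggcgca
Csrnp1 motif 2: cgaggcttggTGAGTCAcggaccccgg

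With RefSeq starts added to GENCODE, an alternative chosen after the data had been seen, 8 of the 10 genes had an own-start peak (47.6% of coding genes) and 5 a wide one (18.9%), Csrnp1 joining Egr1, Jun, Egr2 and Fos. A wide distal peak was then left at Nr4a1 and Nr4a3 (7.64% of coding genes), and no gene had both features. RefSeq promoter sequences were matched for 8 of the 10 genes, so Egr1 and Egr3 kept their GENCODE starts.

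Over the 7 genes with one, the widest own-start peak had a median of 1119 bp, against 926 bp for all coding genes with one (quartiles 746 and 1135 bp). The range, from 499 bp at Nr4a3 to 1868 bp at Egr1, was wide, with 4 genes above the median of coding genes and 3 above the upper quartile. All 7 peaks were CpG-rich, meaning a GC content of at least 50% and a ratio of observed to expected CpG of at least 0.6, as were those of 79.1% of all coding genes with an own-start peak. CpG-rich own-start peaks were wider than 1000 bp in 43.8% and had a median of 958 bp. The GC content ran from 57.1% at Egr2 to 67.5% at Nr4a3. Peaks reached farther upstream than downstream of the main start at 4 of 7 genes (Nr4a3, Egr1, Egr2 and Jun), against 40.4% of coding genes whose main start lies in a peak. The median reach was 498 bp upstream and 275 bp downstream, against 394 and 484 bp for coding genes. The upstream reach of Egr1, Jun and Egr2 was longer than that of 99.4%, 99.2% and 98.7% of coding genes whose main start lies in a peak. The Jun peak also holds a start of BC042782, and the upstream part of the Egr2 peak lies within the annotated Egr2 gene.

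Distal peaks were somewhat more numerous around these genes, with a median of 3.5 per window against 1 for coding genes and 2 for coding genes with an own-start peak. At least 1 was present for 9 of 10 genes, against 64.0% of coding genes. Their median width was 506 bp (range 267 to 2603 bp), against 465 bp for all distal peaks. By position, 25 lay between genes, 3 in introns and 3 in exons, and 6 lay within 5 kb of a start of the gene. A wide distal peak was present for 12.3% of coding genes with an own-start peak, 5.02% of those without and 7.68% of the 17539 genes up to 50 kb long. CpG-rich sequence was present in 9 of the 31 distal peaks, against 2.94% of all distal peaks. These lay at 8 of the 10 genes, all but Egr2 and Jun, against 7.07% of coding genes with a CpG-rich distal peak in the window. That share also counts the 36.0% of coding genes with no distal peak in the window. No placed RefSeq start lay within 1 kb of any of the 9 CpG-rich distal peaks. None was placed for Egr1 or Egr3, so RefSeq starts of these genes could not be found in that way. The 9 peaks ranged from 384 bp, 33832 bp upstream of Csrnp1, to the 1047-bp peak upstream of Nr4a3.

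Distances near the limits of the definitions decided some of these assignments. The own-start peak farthest from its start was the 574-bp peak of Junb at 946 bp, and the distal peak closest to one was a 376-bp peak of Csrnp1 (119887381-119887756) at 1013 bp. The farthest peak inside a 50 kb window was a 565-bp peak 47865 bp from Junb, and the nearest outside was a 386-bp peak 50498 bp from Csrnp1. Around the width limit of 1000 bp, the 1047-bp peak of Nr4a3 lay just above and an 802-bp peak of Nr4a1 just below.

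**Figure D3:**
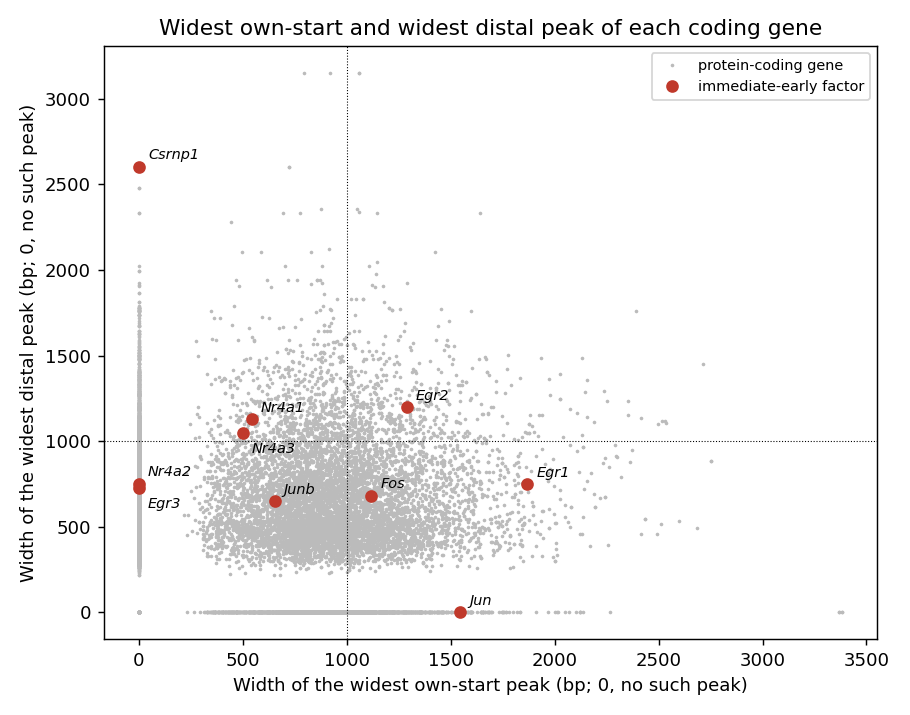
Width of the widest own-start peak (x axis, bp) against the widest distal peak in the window (y axis, bp) for each coding gene (grey) and the 10 genes (red), with 0 where there is none and dotted lines at 1000 bp. Egr2 is the 1 red point beyond both lines, while Csrnp1 stands at 2603 bp on the y axis with no own-start peak.

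Related genes were described in the same way. The lists had been drawn up with earlier results of these data known. Over all coding genes, 46.9% had an own-start peak and 18.7% a wide one. Of coding genes with an own-start peak, 39.8% had a wide one. Of 8 AP-1 relatives, 5 had an own-start peak and 3 a wide one (median 1163 bp). Jund (1973 bp) and Fosl2 (1602 bp) had the widest and Fosb (495 bp) and Batf (679 bp) the narrowest, while Fosl1, Batf3 and Atf3 had none. Fos and Fosb, close relatives, thus lay on different sides of 1000 bp, as did Jun and Junb. Among 5 relatives and corepressors of the EGR, NR4A and CSRNP families, Nab1 (1129 bp), Csrnp2 (876 bp) and Nab2 (496 bp) had an own-start peak, and Egr4 and Csrnp3 had none. All 9 factors upstream of the serum and cAMP response had one, 6 of them wide (median 1326 bp), from 607 bp at Elk3 and 814 bp at Elk1 to 1541 bp at Atf1 and 1669 bp at Mkl1. The gene of SRF itself had a peak of 1232 bp and Creb1 one of 1329 bp.

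Among 28 other early-response genes, which include dual-specificity phosphatases (Dusp1), RNA-binding proteins (Zfp36) and KLF transcription factors (Klf2), 27 had an own-start peak and 18 a wide one (median 1170 bp). The widest were at Zfp36l2 (2537 bp) and Btg2 (2155 bp), the narrowest at Ier3 (487 bp) and Zfp36 (575 bp), and Klf10 had none. For the counts of 27 and 18, the shares of coding genes are 46.9% and 18.7%. Of coding genes with an own-start peak, 39.8% had a wide one. A wide distal peak was near 8 of the 28, against 8.43% of coding genes and 12.3% of those with an own-start peak. Both features were present at 6 of the 28, against 2.53% of coding genes. That last share counts genes without any own-start peak, while 27 of the 28 had one. Of 5 early genes best known from neurons, 3 had an own-start peak, at Homer1 (1046 bp), Arc (870 bp) and Npas4 (545 bp), and none had a wide distal peak. The 10 T-lineage genes with an own-start peak had a median of 808.5 bp. Of the 11 T-lineage genes found, 3 had a wide distal peak and 2 had both features. For the 8 AP-1 relatives these counts were 1 and 0. They were 1 and 0 for the 5 EGR, NR4A and CSRNP relatives and corepressors, and 2 and 1 for the 9 serum and cAMP factors. Of the 6 B-cell genes none had a wide distal peak, and of the 6 myeloid genes 2 had one, without a wide own-start peak.

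**Figure D4:**
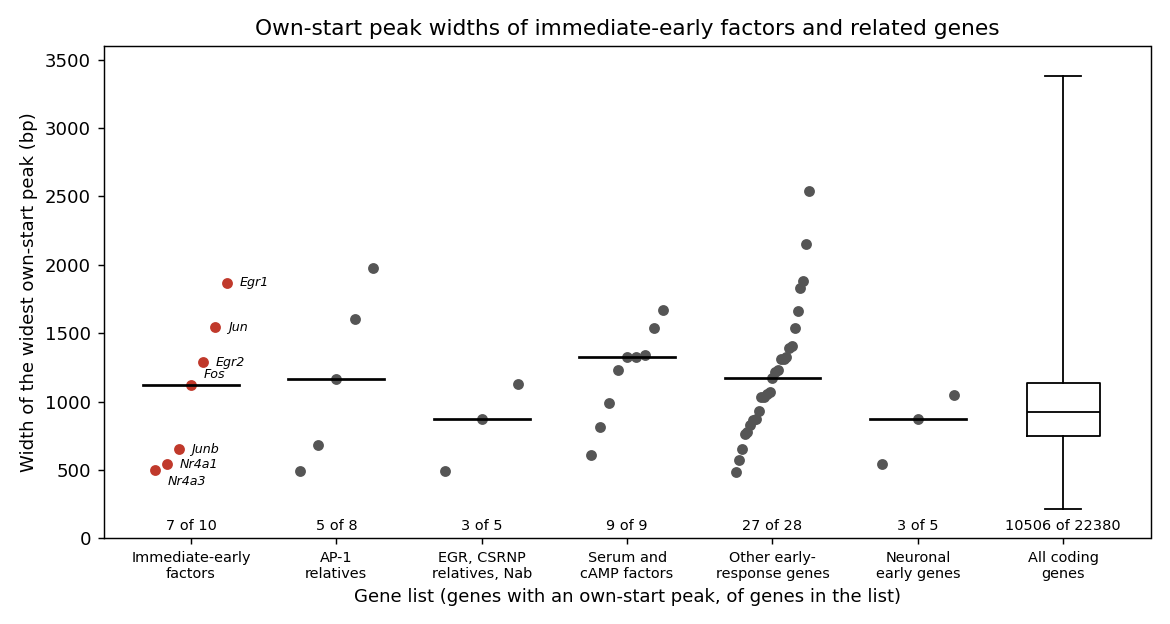
Width in bp of the widest own-start peak (y axis) for each gene of 6 lists (points, with the median as a line) and for all coding genes (box with median and quartiles, whiskers to the lowest and highest value). Numbers above the axis give genes with such a peak of genes in the list, and the 7 immediate-early factors spread from 499 to 1868 bp.

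To find the genes most like the pattern sought, the 8562 coding genes with both kinds of peak were ranked by the smaller of both width percentiles. The own-start percentile was taken over coding genes with an own-start peak. The distal percentile was taken over all coding genes, and those without a distal peak counted as narrower. The 5 at the top were Sp3 (2391 bp at the start and 1760 bp distal), Bcor (2130 and 1486 bp), Elf2 (1935 and 1483 bp), Nr3c1 (2713 and 1452 bp) and Ptma (2024 and 1394 bp). These encode transcription factors, a corepressor, the glucocorticoid receptor and prothymosin α. The immediate-early factors came at place 372 (Egr2), 727 (Egr1), 1091 (Fos), 7168 (Junb), 7779 (Nr4a1) and 7971 (Nr4a3).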

How the data were processed

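ATAC-Seq was done with a commercial kit in 6 libraries of Beko cells, grouped by the labels into 3 treated with GSI and 3 with DMSO. Per the study's methods and the submitters' processing notes, the authors trimmed the reads, aligned them to mm9 with HISAT2 2.2.1, reporting a single alignment for each read, marked and dropped duplicates by Picard, and called peaks by MACS2 with no input. Peaks present in 3 of the 6 libraries were retained unless blacklisted. Whether reads were shifted for the transposase is not given in the sources used here. The deposited values are chromosome, start and end in bp, and the deposited score is 0 for every peak and was not used. A peak present in 1 treatment only stays in the list.

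Coordinates are counted from 1. The reference was NCBIM37 with GENCODE vM1. RefSeq promoter sequences, made on another build, were aligned with minimap2 2.31 and placed where 1 exact match was found (31839 of 32851). Analyses used Python 3.11.15, numpy 2.4.6, pysam 0.24.0 and matplotlib 3.10.9, and interval and motif steps were tested on simulated data. No test was made, since there is 1 list. The genes, lists and motifs were chosen with earlier results of these data known. By rule, every gene and own-start peak was named, as were distal peaks wider than 1000 bp or widest in a window, the 2 widest and 2 narrowest own-start peaks of a related list and the 5 genes most like the pattern sought. Srf, Creb1, genes named as examples of a role, the TGACG motif and peaks named for a motif, a CpG-rich sequence or a limit were added after their values were seen. Ptcra was not matched. Alternatives were other widths, windows, distances, gene models and joined peaks.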

Additional observations from a re-analysis of the deposited data

How the results depend on the processing

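The count of genes with an own-start peak and the median width of those peaks stayed within 1.5 times of the values reported under all alternatives run. With wide set at over 1500 bp, a wide own-start peak was at 2 genes (2.84% of coding genes), a wide distal peak at 1 (1.03%) and both at 0 (0.0223%). At over 750 bp the counts were 4 (35.0%), 5 (20.4%) and 1 (10.0%), so that those for own-start peaks and for both were close to the share of coding genes. With windows of 20 kb there were 17 distal peaks, a wide one at 2 genes (4.61%) and both features at 0 (1.41%). With 100 kb there were 47 distal peaks. With distal meaning more than 5 kb from every start there were 20 distal peaks and a wide one at 2 genes (6.20%), and with peaks of at least 500 bp 16 distal peaks. With RefSeq starts added, chosen after seeing the data, a wide distal peak was at 2 genes (7.64%) and both features at 0 (2.38%). CArG boxes were in 9 of 40 own-start and distal peaks, in 4 of 9 own-start peaks alone and in 3 of 40 when the central 200 bp was searched, alternatives also chosen after seeing the data. Joining peaks within 1000 bp gave 6 genes with a wide own-start peak (20.5%) and a median of 1546 bp (952 bp for coding genes). No paired analysis was possible because 1 list is merged over all libraries, and no replicate could be left out for that reason.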
